A study of Mus musculus with 5 samples.

Results

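The genes described here are 10 members of the Bcl2 family of apoptosis regulators, listed by name rather than by any measured value, out of 27729 genes in the deposited tables. They comprised 4 anti-apoptotic members (Bcl2, Bcl2l1, Bcl2l2 and Mcl1), 2 effectors (Bax and Bak1) and 4 BH3-only members (Bcl2l11, Bid, Bbc3 and Pmaip1). RNA was measured in mouse embryonic fibroblasts (MEFs) from ICR mice at the start (day 0) and after 2, 5, 10 and 14 days in 5C medium, the chemically defined induction medium of the study, which the labels call 6C. The last time point is 14 in the day label of its library and 15 in the treatment text of the same labels, and is called day 14 here. The 5 libraries carried no transgene, and no library of MEFs kept in fibroblast medium for the same times is among them, so time in culture and 5C medium cannot be told apart. There was 1 library per time point. All values therefore come without replicates, no test between days was possible, and all intervals are 95% exact intervals that cover counting error only. The MEFs were cultures from embryos without head and internal organs, seeded on Matrigel after a step that removed weakly attached cells.

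Proteins of the Bcl2 family decide whether the outer mitochondrial membrane is opened during apoptosis. The effectors Bax and Bak1 form the pores, the anti-apoptotic members bind and restrain them, and the BH3-only proteins relay stress signals by occupying the anti-apoptotic members or by activating the effectors directly. Pore opening releases cytochrome c, which assembles with Apaf1 and starts the caspase cascade. In neurons the family is best known for controlling the developmental death of excess cells, and fibroblasts in culture carry Bax and Bak1 together.

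The day 2 library held 2253716 expected counts and the others between 3362083 and 3890310, so that 3 counts, the limit that a count of 0 allows, correspond to 1.33 per 1000000 counts in the former and 0.771 to 0.892 in the latter. The day 2 library stood apart in composition, since Gm42418 held 4.79% of its counts and at most 0.109% of those of the other libraries. All 9 fibroblast markers had 10 or more counts in every library, and their summed TPM (RSEM's abundance per transcript length, scaled to a fixed total in each library) went from 1797 on day 0 to 7995 on day 14. Most of the day 14 sum was held by the collagen genes of the list. In counts normalized for library size and composition, the median log2 change of the 9 was 0.09 on day 14. There 2 were over 2-fold above and 2 over 2-fold below day 0 (24.5% and 19.9% of all genes with 10 or more counts). The neuronal marker Rbfox3 was at 0 in all 5 libraries, and 5 of 9 neuronal markers reached 10 counts in at least 1 library. These 5 went both ways. On day 14, 3 were over 2-fold above and 2 over 2-fold below day 0, beside 24.5% and 19.9% of all genes with 10 or more counts. Macrophage markers had a summed TPM of 67.9, 555, 1766, 1201 and 735 in time order, and Schwann cell and neural crest markers went from 12.45 to 2040 between days 0 and 14. All 8 cycling cell markers were over 2-fold below day 0 on day 14, beside 19.9% of all genes with 10 or more counts. These markers move with the days as the Bcl2 family genes do, and their part in the values given here was not tested.

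Proximal promoters are shown for Bcl2 and Bcl2l11, which were over 2-fold above day 0 on both late days, and for Bax, which had the lowest value of the 10 genes on day 10 relative to day 0. The sequences are those of RefSeq on GRCm38.p6, run 5′ to 3′ on the strand of the gene from 250 bases before to 50 bases after an annotated start, and capitals mark the GC box GGGCGG, the motif bound by Sp1, on either strand (CCGCCC when it lies on the other strand).
Bcl2 promoter, chr1:106714241-106714540, minus strand: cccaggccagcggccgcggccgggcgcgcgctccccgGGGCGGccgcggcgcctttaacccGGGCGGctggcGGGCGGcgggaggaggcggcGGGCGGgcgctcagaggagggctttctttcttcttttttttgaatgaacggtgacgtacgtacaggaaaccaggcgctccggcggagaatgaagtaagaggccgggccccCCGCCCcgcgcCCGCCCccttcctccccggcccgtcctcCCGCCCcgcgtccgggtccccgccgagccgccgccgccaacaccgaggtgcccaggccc
Bcl2l11 promoter at its most upstream start, chr2:128125788-128126087, plus strand: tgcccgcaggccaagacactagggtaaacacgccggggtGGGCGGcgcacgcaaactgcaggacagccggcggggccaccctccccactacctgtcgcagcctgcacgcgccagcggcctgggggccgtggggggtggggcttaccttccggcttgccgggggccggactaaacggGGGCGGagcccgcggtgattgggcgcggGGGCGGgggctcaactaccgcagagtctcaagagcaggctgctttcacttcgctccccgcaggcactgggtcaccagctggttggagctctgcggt
Bax promoter, chr7:45466849-45467148, minus strand: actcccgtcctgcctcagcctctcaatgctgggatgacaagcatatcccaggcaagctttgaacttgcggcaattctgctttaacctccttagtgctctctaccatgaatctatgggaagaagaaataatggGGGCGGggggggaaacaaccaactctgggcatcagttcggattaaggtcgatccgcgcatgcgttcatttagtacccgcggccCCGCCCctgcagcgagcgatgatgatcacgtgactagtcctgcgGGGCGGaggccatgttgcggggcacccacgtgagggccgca
The GC box occurred 7 times in the Bcl2 window, 3 times in that of Bcl2l11 and 3 times in that of Bax, and 35.7% of 32851 mouse promoter windows hold it at least once. G and C made up 76%, 71% and 57.3% of these windows, beside a median of 52.7% over all windows. The Bax window also holds 2 copies of the E-box CACGTG, present in 7.15% of all windows, and the Bcl2l11 window holds 1 copy of GTAAACA, the core of the FOXO site, present in 3.65%. These motifs are not particular to the windows shown. The windows of Bbc3, which was within 2-fold on the late days, hold 5, 4 and 7 GC boxes, and 1 of them holds GTAAACA. The downstream window of Bcl2l11 holds 3 GC boxes and no GTAAACA. Windows of 9 of the 10 genes were read, 14 windows in all, and Pmaip1 is not reported here. Among them, no GC box was found in the single window of Bak1 and in the 3 windows of Bcl2l1. These letters are a description of the windows, and no binding was measured.

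In expected counts (RSEM's estimates of reads per gene) normalized for library size and composition, the effectors Bax and Bak1 were over 2-fold lower from day 5 on, Bcl2l1, Bid and Pmaip1 were over 2-fold lower on days 10 and 14, and Bcl2 and Bcl2l11 were over 2-fold higher on days 10 and 14. The day 5 value of Bax was at the edge of the 2-fold limit, at a log2 change of −1.02 (−1.13 to −0.91). Early on, Bcl2l11 and Bbc3 were over 2-fold higher on day 2, when Bid, Pmaip1 and Bcl2l2 were over 2-fold lower. All 10 genes had 10 or more counts in at least 1 library, and 9 had them in every library, the exception being Bcl2 with 9 counts on day 2. In the day 2 library, 2 of the 10 genes were over 2-fold above day 0, beside a background of 15.2% of all 13346 genes with 10 or more counts in a library, and 3 were over 2-fold below, beside 13.1%. On day 5 these numbers were 1 above (background 20.2%) and 2 below (background 13.6%), on day 10 they were 2 above (background 28.7%) and 5 below (background 22.3%), and on day 14 they were 2 above (background 24.5%) and 5 below (background 19.9%). For 10 genes, the number above day 0 was thus close to the background share on days 10 and 14 and is not read as a result. The number below was above the background share on both days. The median log2 change of the 10 genes was −0.22, −0.50, −1.18 and −0.96 on days 2, 5, 10 and 14, beside −0.03, 0.05, 0.14 and 0.07 for all genes. In bulk RNA, fewer cells that hold a transcript and less of it per cell cannot be told apart.

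**Figure D1:**
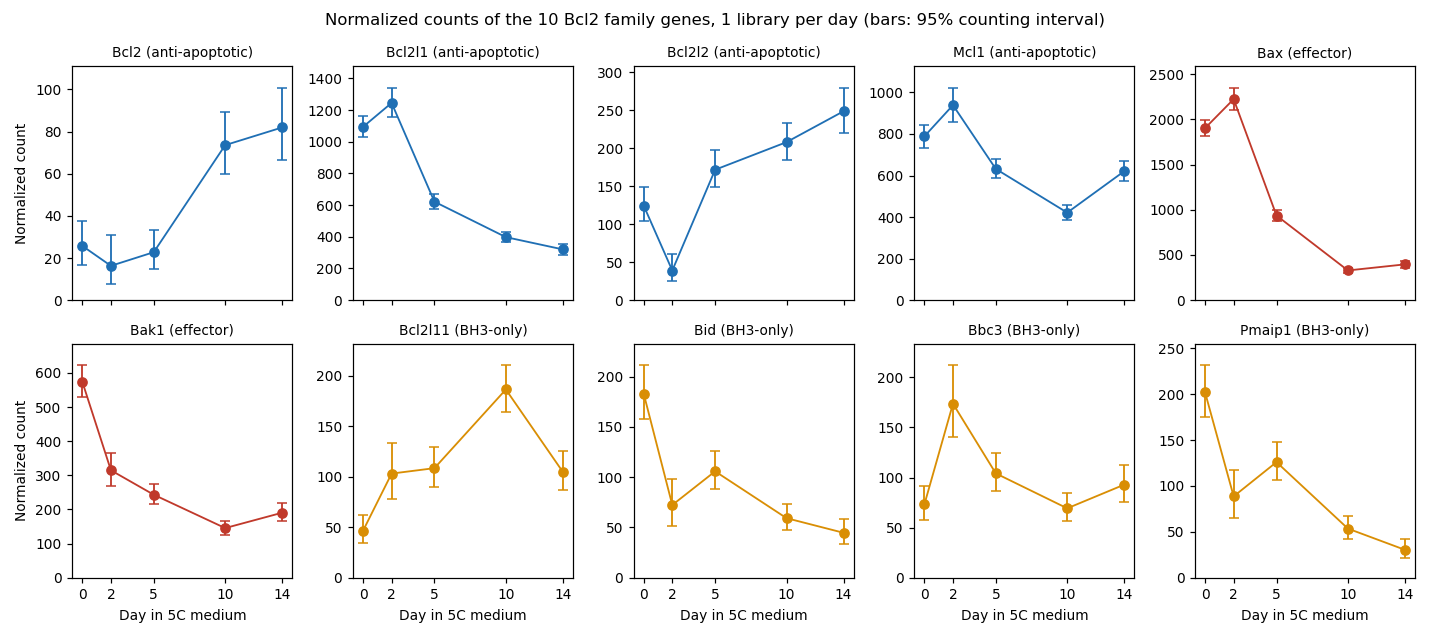
Normalized counts (y axis, linear from 0, own scale per gene) of the 10 Bcl2 family genes by day in 5C medium (x axis); each point is 1 library and the bars are 95% counting intervals. Bax went from 1903 on day 0 to 328 on day 10, while Bcl2 went from 25.7 to 73.6 and Bcl2l11 from 46.5 to 186.

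Bcl2 (ENSMUSG00000057329, chr1:106538178-106714274, minus strand, GRCm38) is the founding anti-apoptotic member. The normalized counts of the 5 libraries in time order (days 0 to 14) were 25.7, 16.3, 22.8, 73.6 and 82.0. Days 0, 2 and 5 had overlapping intervals, as did days 10 and 14, and the 2 late days lay above all of the earlier ones. The log2 change from day 0 was 1.48 on day 10 (interval 0.88 to 2.20) and 1.63 on day 14 (1.03 to 2.36), a 2.86-fold and a 3.19-fold higher level. Between days 5 and 10 alone the log2 change was 1.65 (1.06 to 2.37). These values rest on 26 expected counts at day 0 and 103 at day 10. Bcl2 belongs to the longest of 10 bins of gene length, whose median log2 change on day 10 was itself 1.04, and relative to that median its change on day 10 was 0.44, under 2-fold, and on day 14 it was 1.08.

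Bcl2l1 (ENSMUSG00000007659, chr2:152780668-152831728, minus strand) encodes Bcl-xL, the long-lived guardian of many differentiated cells including neurons, as well as shorter splice forms. It moved in the opposite direction to Bcl2, with normalized counts of 1094, 1245, 621, 398 and 320.0 in time order. Each library after day 2 was below the one before it, with no interval of these steps reaching 0. The log2 change from day 0 was −0.81 on day 5 (−0.95 to −0.68), −1.46 on day 10 (−1.61 to −1.31) and −1.77 on day 14 (−1.95 to −1.60), so that the day 14 level was 3.42-fold lower. Relative to its length bin the changes of days 10 and 14 were −1.56 and −1.91. In TPM as deposited, by contrast, Bcl2l1 was at 158, 151, 154, 149 and 93.2, close to level until day 10. The deposited table has 9 transcripts of this gene, and the gene values do not separate the long from the short form.

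Bcl2l2 (ENSMUSG00000089682, chr14:54883377-54888234, plus strand) encodes Bcl-w, an anti-apoptotic member with high expression in brain. In time order it had 124, 39.0, 172, 208 and 248 normalized counts. It was lowest on day 2, at a log2 change of −1.65 (−2.37 to −0.99), and highest on day 14, at 0.99 (0.69 to 1.31), which is at the edge of the 2-fold limit. The protein-coding gene Gm20521 shares 594 exon bases with it on the same strand, and RSEM gave Gm20521 53.9 and 27.6 expected counts on days 0 and 2 and none on days 5, 10 and 14. With the counts of both genes summed, the values were 178, 89.0, 172, 208 and 248, and the later log2 changes in time order were −0.99, −0.05, 0.23 and 0.48. The split of reads between these genes is therefore uncertain, and the day 2 value of Bcl2l2 crosses the 2-fold limit with the split used.

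Mcl1 (ENSMUSG00000038612, chr3:95658788-95663176, plus strand) encodes an anti-apoptotic protein of short half-life that Noxa, the product of Pmaip1, binds selectively. It varied least of the 4, with normalized counts of 789, 939, 632, 421 and 621 in time order, and it stayed within 2-fold of day 0 throughout on this scale. The lowest value, on day 10, had a log2 change of −0.90 (−1.06 to −0.75), and the step from day 10 to day 14 was 0.56 (0.40 to 0.72) upwards. The sign of the Mcl1 change depends on the scale. TPM divides by transcript length and scales each library to a fixed total. The deposited length of Mcl1 was close to constant, at 3401 bases on day 0 and 3485 on later days. In TPM the log2 change of Mcl1 was 0.35, 0.23 and 0.49 on days 5, 10 and 14. But the median of all genes in TPM was 0.61, 1.09 and 0.78 on these days. Mcl1 thus lay below it by 0.26, 0.87 and 0.29.

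Bax (ENSMUSG00000003873, chr7:45461697-45466898, minus strand) is the effector that moves from the cytosol to mitochondria on activation. Bax had 1903, 2224, 936, 328 and 396 normalized counts in time order. The first 2 libraries were far above the last 3, and the step from day 5 to day 10 was the larger of the downward steps, at −1.51 (−1.67 to −1.35), beside −1.25 (−1.37 to −1.13) from day 2 to day 5. Against day 0 the log2 change was −1.02 on day 5 (−1.13 to −0.91), at the edge of the 2-fold limit. It was −2.53 on day 10 (−2.68 to −2.39) and −2.26 on day 14 (−2.42 to −2.12). The levels of these late days were thus 5.79-fold and 4.81-fold lower. Bax has a transcript length of 869 bases and belongs to the shortest of 10 bins of gene length, whose median log2 change was −1.47 on day 10 and −1.04 on day 14. Relative to that median its change was −0.23 on day 5, −1.06 on day 10 and −1.22 on day 14. In the annotation, Gm45808 shares 192 exon bases with Bax, but it is not among the genes with deposited values.

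Bak1 (ENSMUSG00000057789, chr17:27019810-27029009, minus strand) is the effector that resides in the outer mitochondrial membrane. The course of its normalized counts was 574, 315, 243, 146 and 191. Every later library was below day 0, and day 2, where Bax was above day 0, already had a Bak1 log2 change of −0.86 (−1.12 to −0.62). The change was −1.23 on day 5, −1.97 on day 10 (−2.22 to −1.75) and −1.59 on day 14 (−1.83 to −1.36). Bak1 is of middle length, and relative to genes of its length bin these late changes were −2.08 and −1.72. Ggnbp1 lies on the opposite strand and shares 437 exon bases with Bak1, and the counting is not stated to use strand. Ggnbp1 went from 5.1 expected counts at day 0 to 35.0 at day 10.

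Bcl2l11 (ENSMUSG00000027381, chr2:128126038-128162547, plus strand) encodes Bim, the BH3-only protein that is induced when trophic factors are withdrawn from neurons. From day 0 to day 14 the libraries held 46.5, 103, 109, 186 and 105 normalized counts. All 4 later libraries were over 2-fold above day 0, by 2.22-fold, 2.33-fold, 4.01-fold and 2.25-fold, and the intervals of the log2 changes lay between 0.57 and 2.48. The day 10 library stood above its neighbours, with a log2 change of 1.98 (1.55 to 2.48) from the start and of −0.83 (−1.16 to −0.51) over the last step. Genes of similar length had a median of 0.63 on day 10, relative to which the change was 1.35, while on days 5 and 14 it was 0.89 and 0.75, under 2-fold.

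Bbc3 (ENSMUSG00000002083, chr7:16308393-16318205, plus strand) encodes Puma, a BH3-only protein under direct control of p53. Bbc3 had 73.2, 174, 104, 69.3 and 93.0 normalized counts in time order. It peaked on day 2, at a log2 change of 1.23 (0.79 to 1.70), and was not distinguishable from day 0 on days 10 and 14, with changes of −0.08 (−0.53 to 0.38) and 0.34 (−0.10 to 0.79). The course differs by scale, since in TPM Bbc3 had 17.6, 32.0, 40.5, 34.8 and 44.5, highest on day 14 at a log2 change of 1.29.

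Bid (ENSMUSG00000004446, chr6:120891930-120916853, minus strand) links death receptors to mitochondria after its cleavage by caspase 8. Its normalized counts were 183, 72.4, 106, 59.3 and 44.7 in time order. All later libraries were below day 0, with log2 changes of −1.33, −0.78, −1.61 and −2.01, and days 10 and 14 did not differ beyond counting error (step −0.40, interval −0.94 to 0.12). Bcl2l13, on the opposite strand, shares 628 exon bases with Bid. Its own normalized counts were 124, 56.1, 115, 143 and 114, a course that, unlike that of Bid, returned to the day 0 level by day 5.

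Pmaip1 (ENSMUSG00000024521, on chromosome 18) encodes Noxa, which occupies Mcl1. Its normalized counts were 202, 88.6, 126, 53.6 and 30.4, and the start was the highest and the end the lowest. The log2 change was −1.18, −0.68, −1.89 and −2.69 (−3.30 to −2.20), and the day 14 level was 6.64-fold lower than on day 0. Day 14 had 34 expected counts. Pmaip1 is of middle length, and relative to its length bin the changes of days 10 and 14 were −2.10 and −2.88.

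Because short genes lost and long genes gained counts between the libraries, the scale matters for several of these genes. The median log2 change on day 10 went from −1.47 in the shortest of 10 bins of gene length (up to 1042 bases) to 1.04 in the longest (5446 bases and over), and on day 14 from −1.04 to 0.56. After subtraction of the median of the same bin, 1 of the 10 genes was over 2-fold above day 0 on day 10 (Bcl2l11, background 23.8%) and 6 were below (background 18.4%), namely Bcl2l1, Mcl1, Bax, Bak1, Bid and Pmaip1. On day 14, 1 was above (Bcl2, background 22.3%) and 5 were below (Bcl2l1, Bax, Bak1, Bid and Pmaip1, background 17.9%). In TPM as deposited, 3 genes were over 2-fold above day 0 on day 10 (background 52.9%) and 1 was below, which was Bax (background 6.77%). On day 14 the TPM numbers were 4 above (background 41.6%) and 3 below, namely Bax, Bid and Pmaip1 (background 6.97%). TPM moves the median of all genes by 0.95 and 0.72 relative to normalized counts on these days, and of all genes over 2-fold from day 0 on day 10, 88.6% were above it in TPM and 56.3% in normalized counts. Relative to the TPM median, Bcl2l11 alone was above on day 10 (background 20.6%) and Bcl2l2 alone on day 14 (background 18.1%), and 5 genes were below on both days (backgrounds 22.9% and 19.4%). The Bcl2l2 value rests on a day 0 level without the Gm20521 counts. With both genes summed, normalized counts were 178 on day 0 and 248 on day 14, beside 124 and 248 for Bcl2l2 alone. The Bcl2l2 call may therefore depend on the split of reads. Bax, Bak1, Bcl2l1, Bid and Pmaip1 were over 2-fold lower on days 10 and 14 in normalized counts, relative to the length bin and relative to the TPM median, but not all of them in TPM as deposited. There the day 10 log2 changes were −0.09 for Bcl2l1, −0.80 for Bak1, −0.28 for Bid and −0.71 for Pmaip1, and on day 14 Bak1 and Bcl2l1 were at −0.46 and −0.76. The higher level of Bcl2 was under 2-fold on the last of these, where its change relative to the TPM median was 0.67 on day 10 and 0.86 on day 14.

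**Figure D2:**
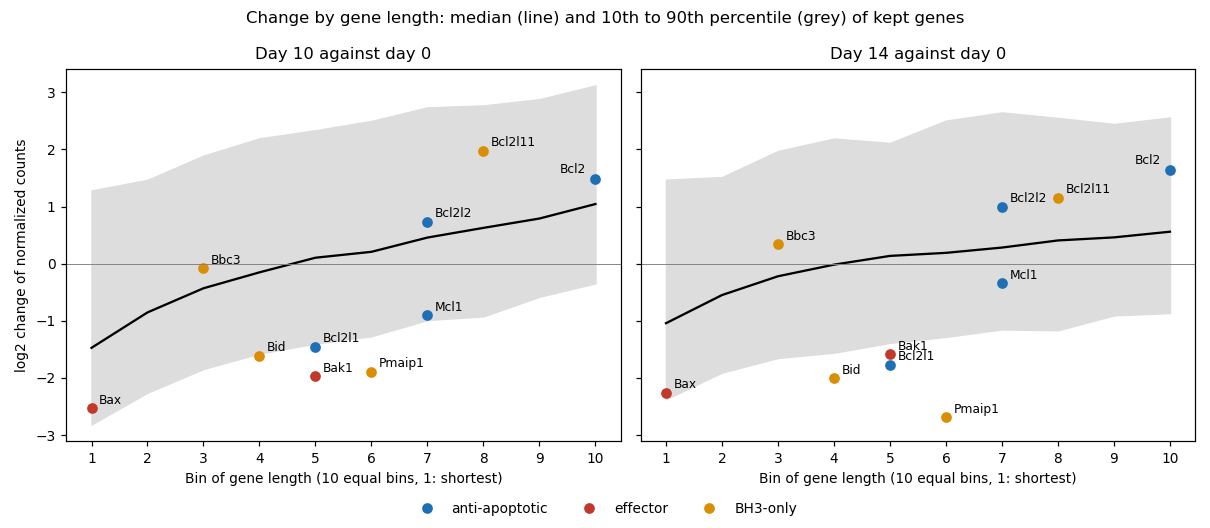
log2 change of normalized counts (y axis) against bin of gene length (x axis, 10 bins, 1 shortest), on days 10 and 14 relative to day 0; the line and grey band are the median and the 10th to 90th percentile of all genes with 10 or more counts, and the points are the 10 Bcl2 family genes by role. Bax sits in the shortest bin and Bcl2 in the longest, and Bcl2l1, Bak1, Bid and Pmaip1 lie below the grey band on both days.

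**Figure D3:**
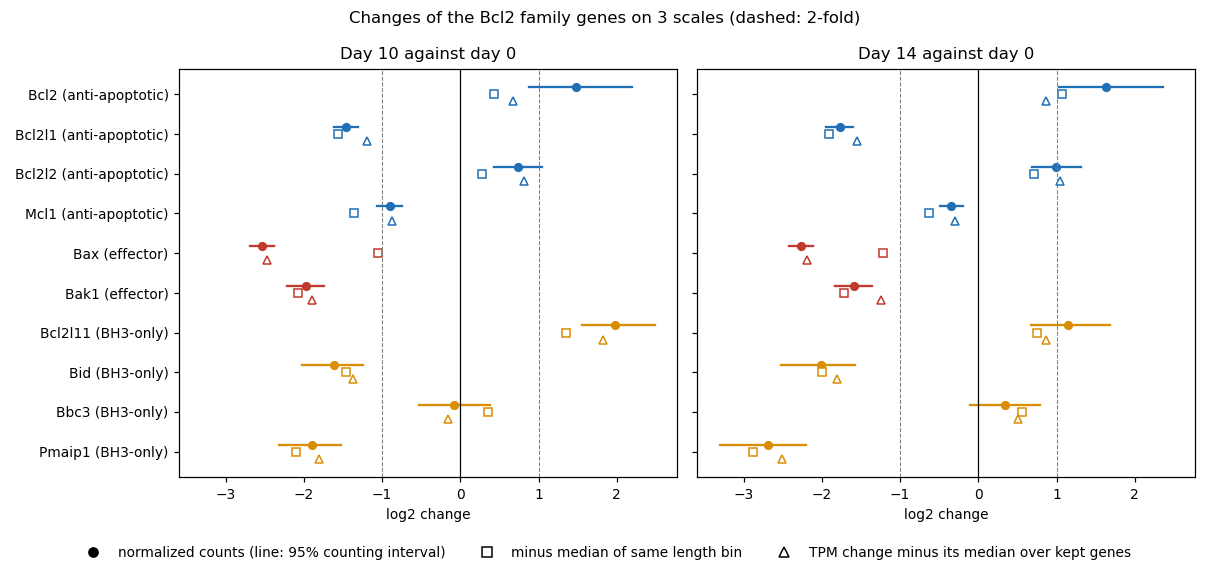
log2 change from day 0 (x axis) of each Bcl2 family gene (rows) on days 10 and 14, as normalized counts with 95% counting intervals (filled circles), minus the median of the same length bin (squares), and as TPM change minus its median over all genes (triangles); dashed lines mark 2-fold. Bax, Bak1, Bcl2l1, Bid and Pmaip1 are left of the lower dashed line on all 3 scales, and the day 10 value of Bcl2 is right of the upper line in normalized counts only.

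Levels of different genes were compared in TPM, that is per transcript length. Bax had the highest TPM of the 10 genes in all 5 libraries, at 786, 773, 628, 301 and 298 in time order, and Bcl2 the lowest or next to lowest, at 1.72, 0.85, 1.95, 8.23 and 7.51. Bcl2l1 and Mcl1 were the most abundant anti-apoptotic members. Bcl2l1 led Mcl1 on day 0 with 158 against 81.6, and Mcl1 led on day 14 with 115 against 93.2. The 4 anti-apoptotic genes held 21.1%, 21.2%, 26.6%, 39.4% and 37.3% of the summed TPM of the 10 genes in time order. The effectors held 72.4%, 73.5%, 63.3%, 45.6% and 51.0%, and the BH3-only genes 6.52%, 5.35%, 10.1%, 15.0% and 11.6%. The summed TPM of the anti-apoptotic genes lay between 234 and 302 over the 5 libraries, while that of the effectors went from 870 at day 0 to 359 at day 14. These shares are not adjusted for the length trend, and Bax, the largest of them, is in the shortest length bin. With the day 0 TPM of each gene multiplied by its fold change relative to its length bin, the anti-apoptotic share was 24.8%, 16.7%, 18.7% and 22.6% on days 2, 5, 10 and 14, beside 21.1% at day 0, so that the higher late share was absent on day 10 and small on day 14 after this adjustment. As a share of counts rather than of TPM, the anti-apoptotic genes went from 40.5% (39.2 to 41.9) on day 0 to 56.6% (54.7 to 58.5) on day 10.

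**Figure D4:**
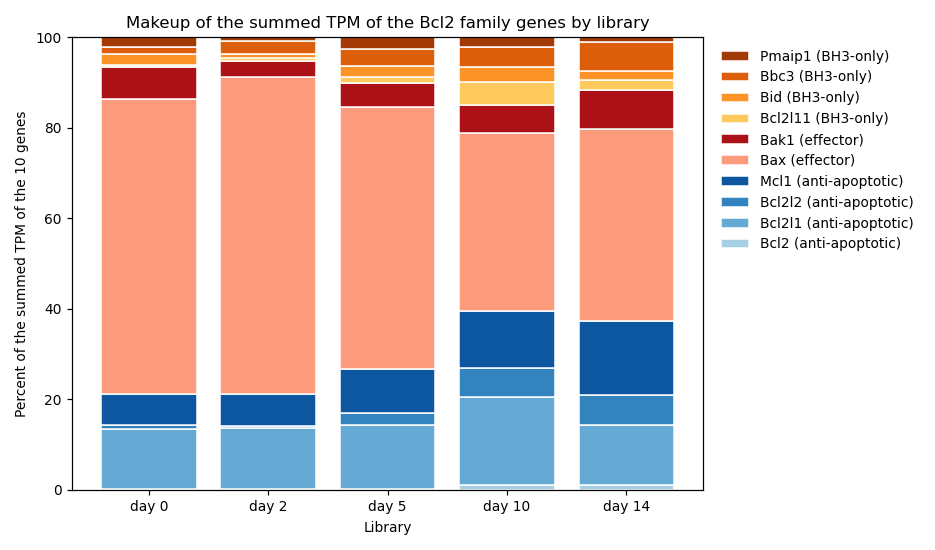
Percent of the summed TPM of the 10 Bcl2 family genes (y axis, from 0) held by each gene in each library (x axis); colours group anti-apoptotic (blue), effector (red) and BH3-only (orange) genes. The Bax segment goes from 65.3% on day 0 to 39.3% on day 10, and the blue segments together from 21.1% to 39.4%, without adjustment for the length trend.

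The ratio of Bcl2 to Bax counts in time order was 0.0135 (0.00881 to 0.0199), 0.00732 (0.00334 to 0.0139), 0.0243 (0.0158 to 0.0358), 0.224 (0.179 to 0.278) and 0.207 (0.164 to 0.260). The 2 late libraries were alike and far above the 3 early ones, at 16.6 and 15.3 times the day 0 ratio, and the TPM ratio was 12.5 and 11.5 times that of day 0. A ratio within a library does not depend on the scaling between libraries, but this one sets the longest against the shortest length bin, whose medians differ by 2.52 on the log2 scale on day 10 and by 1.60 on day 14. After these differences are taken off, the ratio was 2.89 times that of day 0 on day 10 and 5.05 times on day 14. The other anti-apoptotic ratios did not all keep their direction. The ratio of Bcl2l1 to Bax was 2.11 times that of day 0 on day 10 and 1.41 times on day 14, and 0.706 and 0.622 times after the same subtraction. The ratio of Mcl1 to Bax went from 3.10 and 3.79 times to 0.812 and 1.51 times, and that of Bcl2l2 to Bax was 2.54 and 3.84 times after it. The day 0 counts of Bcl2l2 leave out the 53.9 that RSEM gave to Gm20521, which had none on days 10 and 14. The folds of Bcl2l2 to Bax therefore depend on that split of reads, and summing both genes would lower them. Ratios of genes closer in length were less exposed. The ratio of Mcl1 to its partner Pmaip1, from neighbouring length bins, was 3.91 (3.35 to 4.58) at day 0, 10.6 (7.89 to 14.5) at day 2, 5.01 (4.19 to 6.04) at day 5, 7.87 (6.18 to 10.1) at day 10 and 20.4 (14.5 to 29.8) at day 14. It was thus higher at day 2 than at day 5, with no steady rise. The ratio of Bcl2l11 to Mcl1 was 0.0590 (0.0430 to 0.0792) at day 0, 0.110 (0.0820 to 0.145) at day 2, 0.172 (0.141 to 0.208) at day 5, 0.442 (0.381 to 0.513) at day 10 and 0.168 (0.137 to 0.205) at day 14, highest at day 10.

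The genes whose course was most like that of each member were found by the root mean square distance between the 4 log2 changes from day 0, over 8273 genes with 100 or more counts in a library. With 4 points from 5 libraries, this is a description only. For Bcl2 they were Sh3pxd2a (distance 0.17) and Ets1 (0.20), for Bcl2l1 Rnpep (0.09) and Chchd5 (0.12), for Bcl2l2 Syap1 (0.13) and Ginm1 (0.16), and for Mcl1 Snrnp70 (0.06) and Rab2a (0.07). For Bax they were Rpp21 (0.06) and Tmem37 (0.13), and for Bak1 Nifk (0.05) and Cct8 (0.07), a subunit of the cytosolic chaperonin. For Bcl2l11 they were Nrk (0.12) and Parp10 (0.15), for Bid Fbln2 (0.19) and Npm1 (0.19), for Bbc3 Hmg20b (0.07) and Stn1 (0.09), and for Pmaip1 Grem1 (0.21) and Slmapos2 (0.26). The number of genes within a distance of 0.25 was 242 for Mcl1, 109 for Bak1 and 1 for Pmaip1, so that the course of Mcl1 was common and that of Pmaip1 rare among these genes.

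Beyond the 10 members, 67 genes of the apoptosis pathway were read, of which 58 had 10 or more counts in a library. Of these 58, 15 were over 2-fold above and 17 over 2-fold below day 0 on day 10, and 12 above and 15 below on day 14, beside the 28.7%, 22.3%, 24.5% and 19.9% of all genes given above. On day 2, 2 were above (background 15.2%) and 6 below (background 13.1%). On day 5 the numbers were 10 above (background 20.2%) and 7 below (background 13.6%). Among other genes of the family, Bok, an effector-like member, had normalized counts of 117, 63.3, 17.5, 2.86 and 18.8 in time order, and its log2 change on day 10 was −4.93. Bad, a BH3-only member controlled by growth factor signalling, had a change of −1.36 on day 10 but of 0.11 relative to its length bin and −0.34 in TPM. Bnip3, a mitophagy receptor, had a change of −1.56 on day 2. Bmf, a BH3-only gene outside the naming rule that was chosen after its values were seen, had 0, 8, 33, 68 and 60 counts, at least 16.4-fold higher on day 10 than the limit of 3 counts on day 0, while the lower end of the exact interval of that fold is 12.9. Of the 14 genes of this list 7 reached 10 counts, with 1 above and 4 below on day 10 (median −1.21), or 2 above and 1 below relative to the length bins (median 0.11), beside the background shares given above. Bcl2l10 and Hrk, which encodes a neuronal BH3-only protein, were at 0 in all 5 libraries.

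Downstream of the mitochondria, Cycs, cytochrome c, had a change of −2.77 and Htra2, a protease of the intermembrane space, of −1.85 on day 10, or −2.33 and −0.99 relative to their length bins. Of the 14 caspases and mitochondrial death effectors, 5 were above and 4 below on day 10 (background 28.7% and 22.3%), with a median of 0.59. Relative to the length bins 4 were above and 2 below (background 23.8% and 18.4%). All 5 caspase inhibitors had day 10 values above day 0, and 4 were over 2-fold above (background 28.7%), with a median of 1.32. Relative to their length bins the median was 1.47 and 3 were above (background 23.8%). That median is the value of Birc6. Its deposited length went from 1368 bases on day 0 to 3342 on day 10, so that its length bin is uncertain. Xiap, a direct inhibitor of caspases, had normalized counts of 58.9, 59.7, 136, 320 and 189, and its log2 change on day 10 was 2.42, or 1.63 relative to its length bin. Birc3 (2.07) and Birc6 (1.32), which add ubiquitin to caspases and adaptor proteins, were also higher on day 10.

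Upstream of the BH3-only genes, Ddit3, the stress-induced factor CHOP that acts on Bcl2l11 and Bbc3, had normalized counts of 1618, 391, 234, 92.7 and 168 in time order, with a log2 change of −4.11 on day 10. Ddit3 belongs to the shortest length bin, whose median on day 10 was −1.47. Jun, a factor in neuronal Bcl2l11 induction, had counts of 619, 295, 617, 1363 and 4433, with a change of 2.84 on day 14, and Foxo1, a FOXO factor, had a change of 2.39 on day 14 (1.83 relative to its length bin). Of the 6 measured factors, 2 were over 2-fold above (background 28.7% and 24.5%) and 1 below (background 22.3% and 19.9%) on each of days 10 and 14. Relative to the length bins 0 were above on day 10 (background 23.8%), where Jun and Foxo1 had values of 0.68 and 0.73. On day 14, 2 were above (background 22.3%), and 1 was below on both days (background 18.4% and 17.9%). Of 12 p53 target genes other than the members, 5 were over 2-fold below (background 22.3%) and 1 above (background 28.7%) on day 10. On day 14, 7 were below (background 19.9%) and 1 above (background 24.5%), and the medians of these days were −0.76 and −1.31. Phlda3 (−2.39 on day 10), Cdkn1a (−2.02 on day 10), the cell cycle inhibitor p21, and Mdm2 (−1.97 on day 14), the ubiquitin ligase of p53, had the largest changes. The length bin of Phlda3 had a median of −0.85 on day 10. Relative to their length bins, 7 of the 12 were below on day 10 and 9 on day 14, beside 18.4% and 17.9% of all genes.

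Of 7 measured genes of the death receptor pathway, 2 were above and 1 below on day 10 (background 28.7% and 22.3%). Relative to the length bins the numbers were 2 and 2 (background 23.8% and 18.4%). Tnfrsf10b, the mouse TRAIL receptor, had a log2 change of −2.27 on day 14, while Tnfrsf21 and the TNF receptor Tnfrsf1a had changes of 1.82 and 1.53 on day 5. None of the 3 outer membrane channels Vdac1, Vdac2 and Vdac3 was above day 0 on any day in normalized counts, with 1 of the 12 values past 2-fold (Vdac3, −1.31 on day 10, or −0.45 relative to its length bin), and in TPM some of these values were positive (Vdac1, 1.05 on day 10). Of the 4 genes for Mcl1 protein turnover, the ligase gene March5 had the largest change, −1.19 on day 14 (−0.64 relative to its length bin), and Usp9x (0.86) and Huwe1 (0.70) had their largest changes on day 10, within 2-fold.

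**Figure D5:**
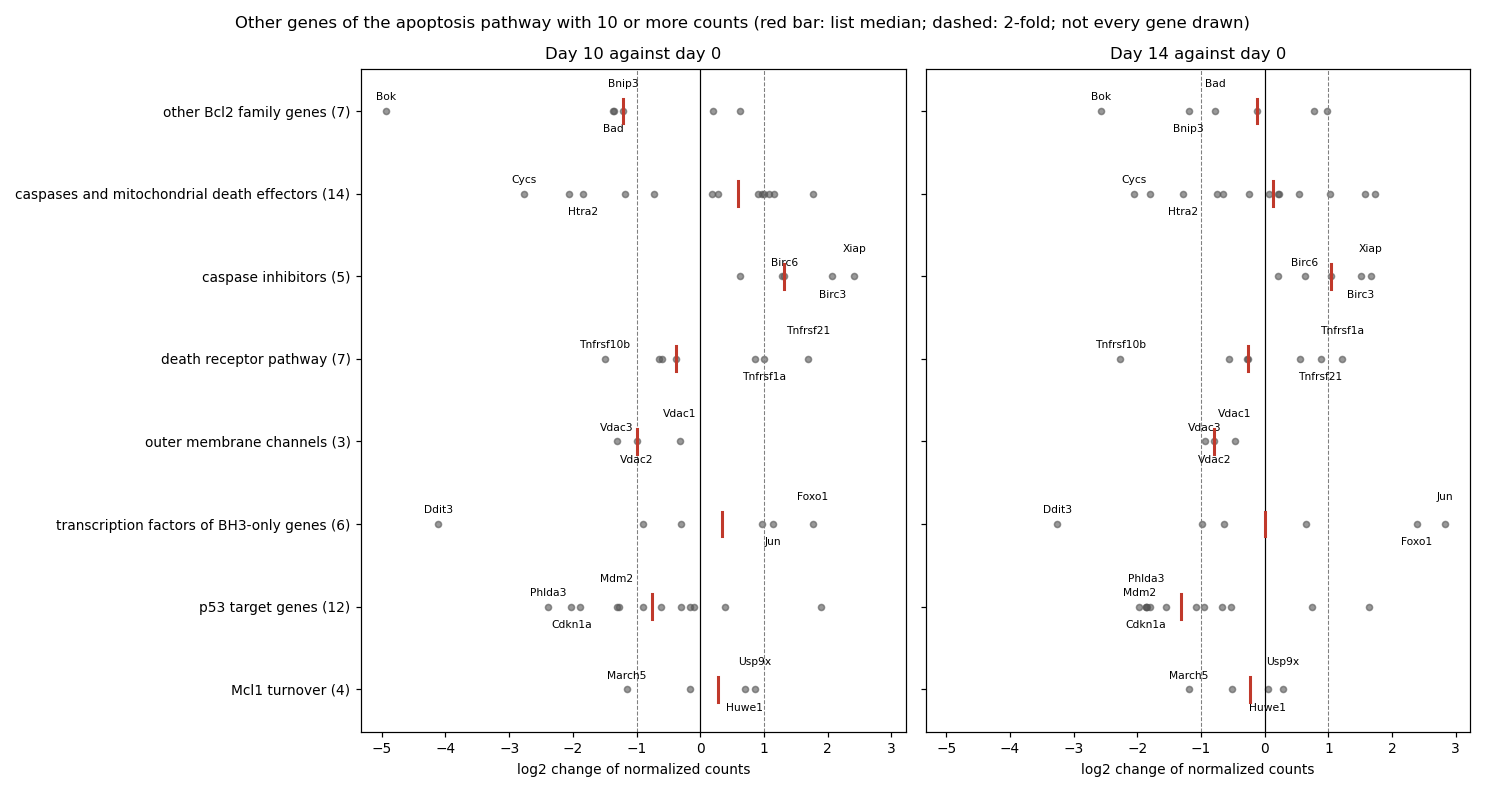
log2 change of normalized counts from day 0 (x axis) of 56 of the 58 apoptosis genes with 10 or more counts (points) by list (rows, number of genes with 10 or more counts in parentheses), on days 10 and 14; red bars are list medians, dashed lines mark 2-fold, and Bmf, at 0 on day 0, is not drawn. The caspase inhibitors have their median right of 0 on both days (1.32 and 1.04), and the p53 targets left of 0 (−0.76 and −1.31).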

How the data were processed

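Total RNA was converted to libraries with the TruSeq RNA kit, 1 library per time point. Bowtie, RSEM and the build mm10 are named in the submitters' processing notes; their versions and the annotation are not given in the sources used here. For every library the authors deposited an expected count of each gene, RSEM's estimate of its reads without scaling, and TPM values, which RSEM divides by transcript length and scales to a fixed total. The authors also deposited gene lengths, which RSEM weights by isoform in each library and which were used to form 10 bins of gene length, and FPKM values, which were not used.

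Groups came from the day in the characteristics labels, whose last value (14) differs from that in the treatment text (15). Identifiers were looked up in GENCODE M21 (GRCm38), giving symbols for 27247 of 27729 genes. Rounded expected counts gave TMM effective library sizes (edgeR 4.0.16, R 4.3.3), and normalized counts are expected counts divided by these and scaled to their geometric mean. log2 changes used a pseudocount of 1, while folds and exact Clopper-Pearson 95% intervals used counts without it. Since PCR copies are not independent molecules, intervals cover counting error only. Genes with 10 or more counts in a library (13346) entered the numbers over 2-fold. No p-value was possible. The depth of 2253716 to 3890310 counts limits genes with under 10 counts.

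The members, the gene lists and the alternatives were chosen with earlier results of these data known. Named were all 10 members, from each other list up to 3 genes with the largest change among those with 100 or more counts in a library, list genes at 0 in all libraries, and the 2 nearest genes to each member. A gene that the rule names is not reported here, in text or plot. Alternatives were DESeq2 size factors (1.42.0), TPM, TMM over day 0 and the later day, scaling without Gm42418 and Lars2, a pseudocount of 5, subtraction of the median of the length bin, a 4-fold threshold, no filter and a filter of 50 counts. For the Bcl2 to Bax ratio 0.5 was added to both counts, and the anti-apoptotic share was also taken of counts and without Mcl1. Scaling without the day 2 library, TPM relative to its median, the anti-apoptotic share relative to the length bins and the sum of Bcl2l2 and Gm20521 were added after seeing the data. The scripts were tested on simulated data.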

Additional observations from a re-analysis of the deposited data

How the results depend on the processing

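No paired analysis was possible because each time point has 1 library. Of the 22 changes over 2-fold among the members, all 22 kept their call with DESeq2 size factors, with TMM over day 0 and the later day, without Gm42418 and Lars2, and with a pseudocount of 5, as did all 17 of days 5 to 14 without the day 2 library. The call was kept by 18 relative to the length bin, by 12 in TPM and by 16 in TPM relative to its median, and no called change of a member reversed. With the Gm20521 counts added, the day 2 change of Bcl2l2 was −0.99, within 2-fold. TPM shifts the median of all genes by −0.17, 0.56, 0.95 and 0.72 on days 2, 5, 10 and 14, and 36.0%, 88.9%, 88.6% and 85.6% of its calls were above day 0, beside 53.7%, 59.6%, 56.3% and 55.2% in normalized counts. TPM divides by transcript length and scales to a fixed total, and the part of either step in these shifts was not tested. The cause of the length trend was not tested either.

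Among the members, TPM gave 0 above on day 2, 3 above and 0 below on day 5, 1 below on day 10, and 4 above and 3 below on day 14. TPM relative to its median gave 1 above on day 2, 0 above and 1 below on day 5, and 1 above on days 10 and 14. Centring on the length bin gave 0 above and 1 below on day 5, and 1 above on days 10 and 14. At a 4-fold limit on the log2 scale with its pseudocount of 1, 0 were above on any day (Bcl2l11, 4.01-fold on day 10 in counts without the pseudocount, is at 1.98 on that scale), and 0, 0, 1 and 3 were below on days 2, 5, 10 and 14. Among the 58 pathway genes, TPM gave 10 below on day 2, 25 above and 2 below on day 5, 29 and 4 on day 10, and 19 and 5 on day 14, and the 4-fold limit gave 1 below on day 2, 4 and 2 on day 5, 4 and 6 on day 10, and 3 and 4 on day 14. Without a filter 4 pathway genes were above on day 2, with 50 counts 1 was, and 4 were below on day 5 relative to the length bin.

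Over all genes, TPM gave 1055 above on day 2, 4269 above and 531 below on day 5, 7057 and 904 on day 10, and 5548 and 930 on day 14, where normalized counts gave 2023 above on day 2, 2690 and 1821 on day 5, 3826 and 2974 on day 10, and 3268 and 2657 on day 14. At 4-fold there were 715 above and 390 below on day 2, 1161 and 371 on day 5, 1850 and 1057 on day 10, and 1560 and 815 on day 14. Without a filter 3529 were above on day 2, and with 50 counts 1203 were above on day 2 and 1721 on day 5. The anti-apoptotic share in time order was 40.5%, 42.9%, 47.1%, 56.6% and 59.7% of counts, and 15.4%, 15.1%, 18.8%, 30.8% and 25.1% of TPM without Mcl1 (21.1%, 21.2%, 26.6%, 39.4% and 37.3% of TPM). Relative to the length bin it was 24.8%, 16.7%, 18.7% and 22.6% on days 2, 5, 10 and 14, so that the higher share of day 10 was lost; this alternative was chosen after seeing the data. With 0.5 added to both counts, the Bcl2 to Bax ratio stayed within its counting interval on each day. Depth limits Bcl2, with 9 counts on day 2, and Bcl2l11, with 47.0 counts on day 0.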

Other observations

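Among the 10 genes, Bid and Pmaip1 had the most similar course, with a root mean square distance of 0.38 between their 4 log2 changes, and Bcl2l11 and Pmaip1 the least similar, at 3.11, although all 3 are BH3-only genes. The Bcl2a1 genes, anti-apoptotic members expressed mainly in blood cells, are near-identical copies, and the split of reads between them was not tested. Bcl2a1b had 1.56, 14, 17.3, 0 and 4.5 expected counts in time order, and Bcl2a1d had 4.08 on day 5 and 2.15 on day 10. The summed normalized counts of the 10 macrophage markers were 223, 2034, 3666, 1889 and 1381 in time order. The part of macrophages in the Bcl2a1 counts was not tested.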
